A study of Mus musculus with 23 samples.

Results

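The antioxidant and glutathione genes Sod1, Sod2, Sod3, Cat, Gpx1, Gpx3, Gclc, Gclm, Gstm1 and Nqo1 were followed in mouse quadriceps muscle after corticosterone treatment. These 10 genes were chosen by name, with earlier results of these data known, and matched by symbol to the gene identifiers of the count table. All 10 of the 55573 genes in the table were found, and all 10 were among the 13049 genes that passed the filter on low counts. The study examined 23 male and female mice of strain C57Bl6 (C57BL/6J in the methods), aged 8 to 10 weeks, that carried no transgene or deletion. A slow-release pellet was placed under the skin of the neck for 14 days. It held 50 mg corticosterone and 50 mg cholesterol in the corticosterone-treated mice (6 males and 5 females), and 100 mg cholesterol in the vehicle-treated mice (6 males and 6 females). All mice were fasted for 5 hours before tissue collection. RNA was sequenced from whole muscle, so each value is a mixture of muscle fibers and all other cells in the piece, and fewer cells of a type and less RNA per cell cannot be told apart.

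Superoxide formed by mitochondria and oxidases is converted to hydrogen peroxide by superoxide dismutases, which are cytosolic (Sod1), mitochondrial (Sod2) or secreted and bound to the extracellular matrix (Sod3). Hydrogen peroxide is then removed by catalase (Cat) in peroxisomes and by glutathione peroxidases, of which Gpx1 is intracellular and Gpx3 is the secreted plasma form. The peroxidases use glutathione, whose rate-limiting synthesis step is carried out by glutamate-cysteine ligase, made of a catalytic (Gclc) and a modifier subunit (Gclm). Glutathione S-transferase mu 1 (Gstm1) couples glutathione to reactive compounds, and Nqo1 reduces quinones. Gclc, Gclm, Gstm1 and Nqo1 are well-known targets of the transcription factor NRF2, which binds antioxidant response elements. Corticosterone is the main glucocorticoid of mice and acts through the glucocorticoid receptor.

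Promoter sequence is shown for the pair of genes that responded in both sexes and for the members that held an antioxidant response element core. The 250 bases before the annotated start were searched on both strands in RefSeq windows (build GRCm38.p6), which matched 8 of the 10 members with 9 windows. Sod3 and Gclc had no entry. The sequences run 5′ to 3′ on the strand of the gene, and capitals mark the match named after each one.
Gpx3, chr11:54902604-54902771 on the plus strand, the glucocorticoid receptor hexamer in capitals: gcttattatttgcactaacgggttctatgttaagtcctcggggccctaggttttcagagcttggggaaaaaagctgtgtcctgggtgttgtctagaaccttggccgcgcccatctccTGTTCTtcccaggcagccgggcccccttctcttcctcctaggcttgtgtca
Nqo1, chr8:107403216-107403455 on the minus strand, no match: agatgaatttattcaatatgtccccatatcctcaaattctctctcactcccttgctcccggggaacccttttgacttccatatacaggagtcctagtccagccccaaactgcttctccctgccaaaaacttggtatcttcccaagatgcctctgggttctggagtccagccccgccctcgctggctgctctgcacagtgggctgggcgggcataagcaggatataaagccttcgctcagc
Gclm, chr3:122245397-122245456 on the plus strand, antioxidant response element core in capitals: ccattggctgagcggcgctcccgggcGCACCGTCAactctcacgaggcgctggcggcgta
Sod1, chr16:90220682-90220741 on the plus strand, antioxidant response element core in capitals: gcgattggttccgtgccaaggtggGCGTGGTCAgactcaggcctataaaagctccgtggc
The antioxidant response element core was searched as TGACNNNGC and was found in the windows of Gclm and Sod1, beside 10.2% of all 32851 windows. The hexamer AGAACA, which forms each arm of a glucocorticoid receptor site, was found for Cat, Gstm1, Gclm and Gpx3, beside 16.1% of all windows. The full palindromic glucocorticoid receptor site was found in 0 member windows and in 0.387% of all. The Gpx3 stretch precedes a RefSeq transcript start and lies inside the gene as annotated by GENCODE, which begins at 54902453 with another transcript. These matches describe the letters in the windows, and binding was not measured.

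The counts assigned to genes ranged from 20904150 to 21984477 per mouse, and the lowest count of any member in any mouse was 140, for Sod3. Expression is given in CPM, the count of a gene scaled to library size, with library sizes adjusted by TMM, a normalisation that uses the genes shared by the libraries. Fold changes are on the log2 scale (log2FC), and a gene was called changed at an adjusted p under 0.01 in a single edgeR quasi-likelihood fit across all genes and all 4 groups. The 5 skeletal muscle marker genes summed to between 43662 and 111189 CPM per mouse, so muscle RNA was abundant in every library. RNA of other cell types was also present, and some mice stood apart. The 8 hepatocyte marker genes, which muscle does not make at high level, summed to 2463 CPM in corticosterone-treated male M8 and 2379 CPM in corticosterone-treated female F10, against group medians of 109 to 203 CPM. They were also high in vehicle-treated male M9 (1447 CPM), corticosterone-treated male M12 (1439 CPM) and corticosterone-treated female F6 (1094 CPM), which stay in the fits without M8 and F10. The 9 adipocyte marker genes summed to between 481 and 10305 CPM. Erythrocyte marker sums had medians of 298 CPM in corticosterone-treated and 129 CPM in vehicle-treated male mice, and of 507 and 131 CPM in females. Of the 5 erythrocyte markers tested, 4 were called higher in each sex, beside 13.2% of all tested genes in males and 7.40% in females. Fibroblast marker sums had medians of 430 CPM in corticosterone-treated and 1196 CPM in vehicle-treated males, and of 814 and 1220 CPM in females. In males 4 of 6 markers were called lower, beside 13.1% of all tested genes. In females 2 of 6 were called lower, where 13.4% of all tested genes were called in either direction. Slow fiber marker sums ran from 42.9 to 5017 CPM in vehicle-treated males and from 40.2 to 5806 CPM in vehicle-treated females. They were high in vehicle-treated females F3 and F5, which were the highest of their group for Cat and Sod3. They were also high in vehicle-treated males M3 and M5. Of these, M3 was the highest of its group for Sod3 (28.8 CPM), and M5 (13.3 CPM) lay below the group median of 16.5 CPM. Cat was highest in M11 (143 CPM), followed by M5 (138 CPM) and M3 (136 CPM). The part of these cell types and fibers in the results below was not tested except where a value is given. The sources used here do not state whether male and female mice were processed together, so that sex and batch cannot be told apart in any comparison between the sexes.

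Per kilobase of annotated exon, Gpx3 was the most abundant member with 347 CPM per kb on average over all 23 mice, followed by Gstm1 with 127. Cat (55.0), Gpx1 (54.9), Sod1 (40.6) and Sod2 (26.5 CPM per kb) formed the middle of the order. Nqo1 (13.5), Sod3 (5.63), Gclc (4.92) and Gclm (2.99 CPM per kb) were the lowest. The mouse ranges of Gpx1, Cat and Sod1 overlapped as neighbours in all 4 groups, so their order was not resolved. Gpx3 and Gstm1 overlapped in both vehicle groups and were wholly separated in both corticosterone groups. Sod3 was the eighth in order in vehicle-treated males, the ninth in corticosterone-treated males and vehicle-treated females, and the seventh in corticosterone-treated females, where its mean of 11.9 CPM per kb stood above that of Nqo1 (8.05) with overlapping ranges. The lengths join all annotated exons, retained introns included, which lowers the per-length value of Sod2, Gclm and Sod1.

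Corticosterone changed 2 or 3 of the 10 genes in each sex, in different directions. In male mice Gpx3 was upregulated and Nqo1 downregulated, which is 2 of 10 members called, where 26.3% of all tested genes were called (13.2% higher and 13.1% lower). In female mice Gpx3 and Sod3 were upregulated and Nqo1 was downregulated. That is 3 of 10 members, beside 13.4% of all tested genes (7.40% higher). The median log2FC of the members was -0.01 in males and 0.26 in females, and that of all tested genes was -0.02 and 0.04.

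**Figure D1:**
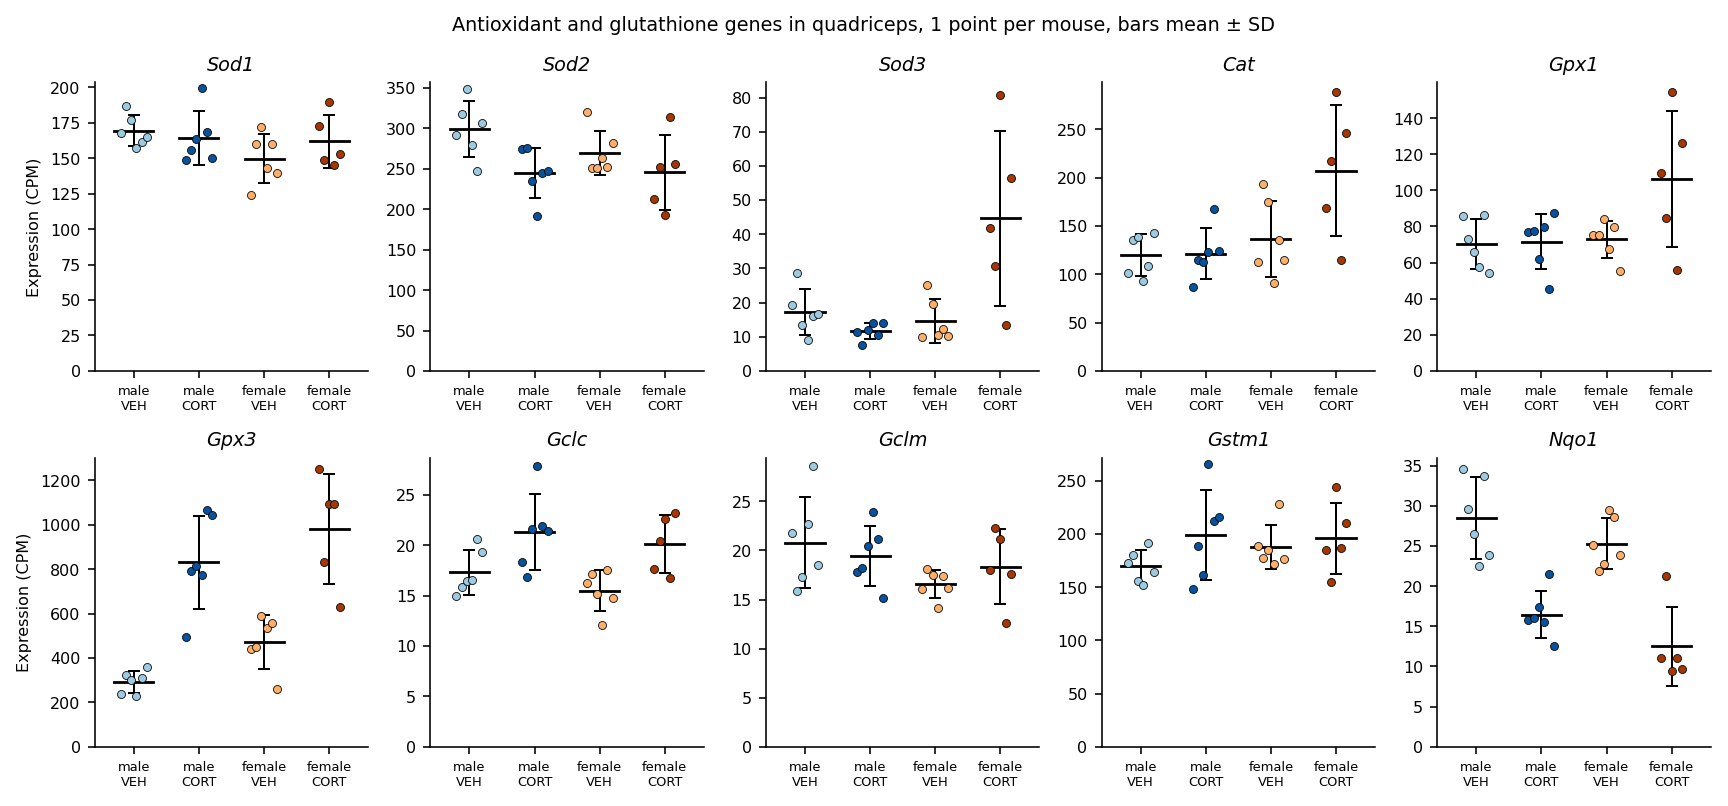
Expression of the 10 genes in CPM (y axis, from 0) in each of the 23 mice, by group (x axis: vehicle, VEH, and corticosterone, CORT, in each sex). Each point is a mouse, and the lines give the group mean ± SD. Gpx3 was higher and Nqo1 lower in every corticosterone-treated mouse than in any vehicle-treated mouse of the same sex, whereas Sod3 stood out in corticosterone-treated females, with values from 13.4 to 80.9 CPM.

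Among the superoxide dismutases, cytosolic Sod1 was the steadiest (ENSMUSG00000022982, chromosome 16, 90220754 to 90226329, plus strand). Its means were 169 ± 10.9 CPM in vehicle-treated males, 164 ± 19.0 in corticosterone-treated males, 150 ± 17.4 in vehicle-treated females and 162 ± 18.9 in corticosterone-treated females (SD, n = 6, 6, 6 and 5). The log2FC was -0.04 (SE 0.09, adjusted p = 0.734) in males and 0.11 (SE 0.09, adjusted p = 0.403) in females, so a change beyond the spread between mice was not detected.

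Mitochondrial Sod2 (ENSMUSG00000006818, chromosome 17, 13006846 to 13040063, plus strand) ran from 248 to 349 CPM, with a median of 299, in vehicle-treated males and from 192 to 275 CPM, with a median of 246, in corticosterone-treated males. All 6 corticosterone-treated males lay below the vehicle mean, but the groups overlapped. The log2FC of -0.29 (SE 0.11) had an adjusted p of 0.0460 and did not pass the threshold. In females it was -0.14 (SE 0.12, adjusted p = 0.419).

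Extracellular Sod3 (ENSMUSG00000072941, chromosome 5, 52363791 to 52371418, plus strand) varied the most of the 10 genes, with a 10.5-fold difference between the highest and the lowest mouse. In vehicle-treated females it ran from 9.81 to 25.2 CPM with a median of 11.4. The corticosterone-treated females measured 41.9 (F2), 30.6 (F4), 80.9 (F6), 13.4 (F8) and 56.4 CPM (F10). Of these 5 mice, 4 were above every vehicle-treated female, and F8 lay within the vehicle range, so the groups overlapped. The log2FC was 1.61 (SE 0.35, adjusted p = 0.00197), a mean of 44.6 ± 25.6 (SD, n = 5) against 14.6 ± 6.34 CPM (SD, n = 6). The call rested on F6, since without it the log2FC was 1.27 with an adjusted p of 0.0126, and in a fit of the female mice alone the adjusted p was 0.0235.

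In male mice Sod3 went from 9.08 to 28.8 CPM (median 16.5) with vehicle and from 7.74 to 14.2 CPM (median 11.6) with corticosterone. The groups overlapped and the log2FC of -0.56 (SE 0.34, adjusted p = 0.189) was not called. The difference between the male and the female response was -2.17 (SE 0.48) on the log2 scale with an adjusted p of 0.0140, which missed the threshold. It passed in DESeq2 (adjusted p = 0.00051) and in limma-voom (adjusted p = 0.0021). At 0.690% of all tested genes, calls for this difference were rare, and 0 of the 10 members was called with edgeR, 1 (Sod3) at an unadjusted p under 0.05.

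Catalase (Cat, ENSMUSG00000027187, chromosome 2, 103453849 to 103485160, minus strand) measured 169 (F2), 218 (F4), 289 (F6), 115 (F8) and 246 CPM (F10) in corticosterone-treated females, against 90.6 to 193 CPM with a median of 125 in vehicle-treated females. Again F8 was the lowest, and the groups overlapped. The log2FC was 0.60 (SE 0.21) with an adjusted p of 0.0429, short of the threshold, and without F8 it was 0.75 with an adjusted p of 0.00735. In males the means were 121 ± 26.1 CPM with corticosterone and 120 ± 21.5 CPM with vehicle (SD, n = 6 each), with a log2FC of 0.02 (SE 0.21, adjusted p = 0.957).

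Intracellular Gpx1 (ENSMUSG00000063856, chromosome 9, 108338903 to 108340343, plus strand) had the same highest and lowest mouse as Cat among the corticosterone-treated females, with 110 (F2), 85.0 (F4), 154 (F6), 56.0 (F8) and 126 CPM (F10) with corticosterone, and 55.5 to 84.4 CPM with a median of 75.1 with vehicle. Its log2FC in females was 0.54 (SE 0.20, adjusted p = 0.0492), and 0.71 with an adjusted p of 0.00495 without F8. In males it was 0.02 (SE 0.19, adjusted p = 0.943). The difference between the sexes in response was not called for Cat (-0.58, adjusted p = 0.180) or for Gpx1 (-0.52, adjusted p = 0.198).

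Sod3, Cat and Gpx1 were set beside the adipocyte markers, since F6 was the highest and F8 the lowest corticosterone-treated female for these genes and for the marker sum. Adiponectin (Adipoq), a hormone made by adipocytes, measured 366 (F2), 126 (F4), 626 (F6), 5.95 (F8) and 368 CPM (F10) in corticosterone-treated females, 13.3 to 68.6 CPM in corticosterone-treated males, 4.81 to 150.4 CPM in vehicle-treated females and 4.45 to 89.2 CPM in vehicle-treated males. F8 was thus the lowest of its group for Adipoq as well as for Sod3, Cat and Gpx1. It was also the lowest for the macrophage (94.4 CPM), fibroblast (523 CPM), smooth muscle (112 CPM) and Schwann cell (89.3 CPM) marker sums. It was not the lowest for the endothelial, hepatocyte, erythrocyte or neutrophil sums. F6 and F10, the highest for Sod3, Cat and Gpx1, had the highest hepatocyte sums (1094 and 2379 CPM). They also had the highest macrophage (246 and 299 CPM) and smooth muscle sums (319 and 235 CPM) of their group. They had the lowest skeletal muscle sums (51056 and 43662 CPM). The part of macrophage, fibroblast, smooth muscle and Schwann cell RNA was not tested. The sum of all 9 adipocyte markers, which include Car3, a gene that muscle fibers also make, was 714 CPM in F8 and 4883 to 10305 CPM in the other corticosterone-treated females, and 1118 to 8305 CPM in vehicle-treated females. The mice other than F6 and F8 did not keep the same order. F10 had the sum of 4883 CPM, but was above F2 and F4 for Sod3, Cat and Gpx1. F2 had more Adipoq than F4, but less Cat (169 against 218 CPM). Vehicle-treated female F1 had a sum of 7270 CPM and the lowest Sod3 of its group (9.81 CPM).

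Of the 9 adipocyte markers, 1 (leptin, Lep) was called higher in females and 0 in males, beside 7.40% and 13.2% of all tested genes. The median log2FC of the markers was 2.08 in females and -0.08 in males. The other female values were 2.08 for Adipoq, 2.67 for Plin1, 2.69 for Cidec, 1.72 for Fabp4, 2.18 for Retn and 1.86 for Pparg, and -0.77 for Cfd and -0.65 for Car3, none of them called. Cfd and Car3 thus had the opposite sign within the summed level. With the mean log2 CPM of these markers as a covariate, the female log2FC was 0.76 for Sod3 (adjusted p = 0.00513), 0.28 for Cat (adjusted p = 0.338) and 0.13 for Gpx1 (adjusted p = 0.627). The value for Sod3 was thus under the 1.61 of the fit without the covariate, and the gene was still called. The corresponding male value of Sod3 was -0.48 (adjusted p = 0.0128).

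**Figure D2:**
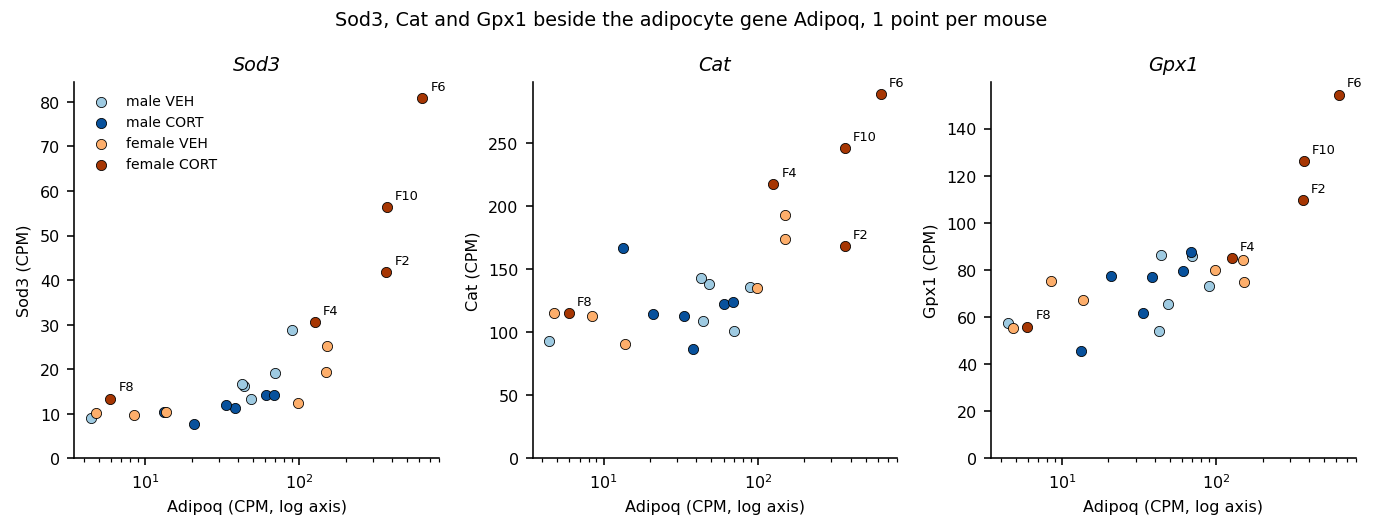
Sod3, Cat and Gpx1 (y axes, CPM from 0) against Adipoq (x axis, CPM on a log axis), 1 point per mouse, with the 5 corticosterone-treated females named. F6 was the highest in all 3 genes and in Adipoq (626 CPM), and F8 (Adipoq 5.95 CPM) lay among the vehicle-treated mice.

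Secreted Gpx3 (ENSMUSG00000018339, chromosome 11, 54902453 to 54910377, plus strand), whose promoter is printed above, rose in both sexes. In males it ran from 228 to 358 CPM with a median of 304 under vehicle, and from 493 to 1068 CPM with a median of 802 under corticosterone. In females the vehicle-treated mice ran from 261 to 590 CPM with a median of 492, and the corticosterone-treated mice measured 1250 (F2), 832 (F4), 1094 (F6), 1096 (F8) and 631 CPM (F10). No corticosterone-treated mouse overlapped the vehicle-treated mice of its sex, which held in this direction for 10.8% of all tested genes in males and 3.38% in females.

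The log2FC of Gpx3 was 1.51 (SE 0.20, adjusted p = 7.78e-06) in males, a 2.84-fold higher level, and 1.05 (SE 0.21, adjusted p = 0.00108) in females, a 2.08-fold higher level. The responses differed by 0.45 (SE 0.29, adjusted p = 0.287), which does not show that they were equal. In vehicle-treated mice all 6 males lay below the female mean of Gpx3, and that log2FC of -0.69 (SE 0.20) had an adjusted p of 0.0756. In a fit of the female mice alone the adjusted p of the response was 0.0120.

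Neither subunit of glutamate-cysteine ligase was called. The catalytic subunit Gclc (ENSMUSG00000032350, chromosome 9, 77754535 to 77794485, plus strand) had means of 17.3 ± 2.19 and 21.3 ± 3.80 CPM in vehicle- and corticosterone-treated males, and 15.5 ± 2.003 and 20.1 ± 2.88 CPM in females (SD, n = 6, 6, 6 and 5). All 5 corticosterone-treated females and 5 of 6 corticosterone-treated males were above the vehicle mean of their sex, with overlap in both. The log2FC of 0.30 (SE 0.12, adjusted p = 0.0470) in males and 0.38 (SE 0.12, adjusted p = 0.0289) in females did not pass 0.01.

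The modifier subunit Gclm (ENSMUSG00000028124, chromosome 3, 122245557 to 122270732, plus strand) had log2FC values of -0.10 (SE 0.14, adjusted p = 0.612) in males and 0.15 (SE 0.15, adjusted p = 0.494) in females. Its 4 group means lay between 16.6 and 20.8 CPM. Gclm shares its locus with the pseudogene Gm6061 on the same strand, so that its counts are less certain.

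Gstm1 (ENSMUSG00000058135, chromosome 3, 108012255 to 108017973, minus strand) ran from 152 to 192 CPM in vehicle-treated males and from 148 to 266 CPM in corticosterone-treated males, with the highest value in M8. Its log2FC was 0.23 (SE 0.12, adjusted p = 0.147) in males and 0.06 (SE 0.13, adjusted p = 0.767) in females. The Gstm genes are a family of close copies, so reads may be divided among them and each value is uncertain.

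Nqo1 (ENSMUSG00000003849, chromosome 8, 107388225 to 107403206, minus strand), whose promoter is also printed above, was the only member that fell in both sexes. In males it ran from 22.5 to 34.6 CPM with a median of 28.0 under vehicle and from 12.5 to 21.5 CPM with a median of 15.9 under corticosterone. Vehicle-treated females ran from 21.8 to 29.5 CPM with a median of 24.5, and the corticosterone-treated females measured 11.004 (F2), 21.3 (F4), 9.50 (F6), 11.02 (F8) and 9.66 CPM (F10). F4 stood far above the other 4 and just under the lowest vehicle-treated female.

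The log2FC of Nqo1 was -0.79 (SE 0.17, adjusted p = 0.000957) in males and -1.02 (SE 0.18, adjusted p = 0.000464) in females. All corticosterone-treated mice lay below all vehicle-treated mice of their sex, as 11.1% of all tested genes did in males and 4.34% in females. The difference between the responses was 0.23 (SE 0.25, adjusted p = 0.546). The calls held in both sexes with the adipocyte score, with the hepatocyte score, without M8 and F10, and with each mouse left out, where log2FC ran from -0.88 to -0.72 in males and from -1.30 to -0.95 in females. Fibroblast marker sums also had lower medians with corticosterone, 430 against 1196 CPM in males and 814 against 1220 CPM in females. They were not used as a covariate, and the part of fibroblast RNA in Nqo1 was not tested.

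**Figure D3:**
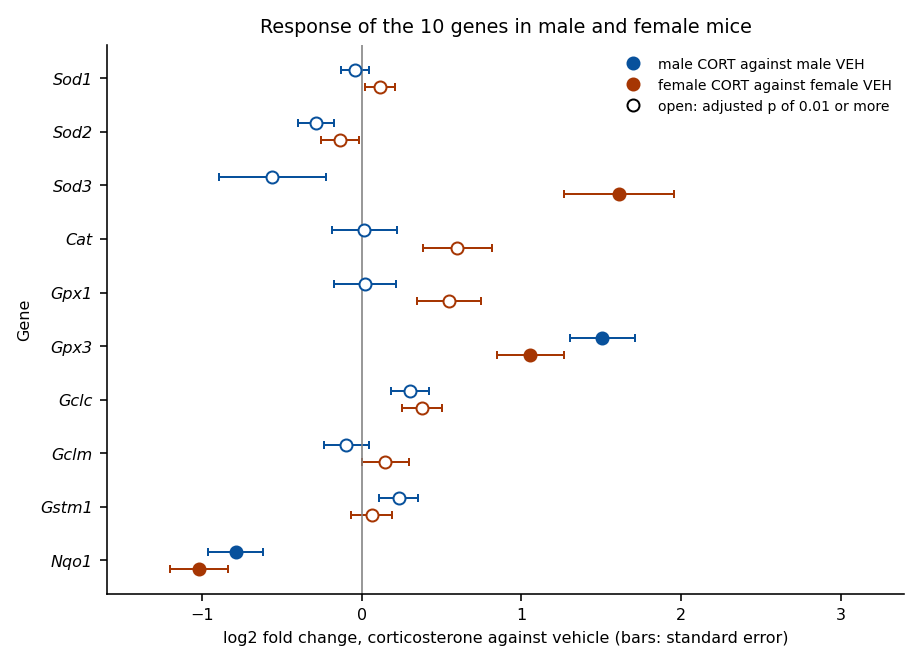
Log2 fold change of corticosterone against vehicle (x axis) for each of the 10 genes (y axis) in male (blue) and female (red-brown) mice, with standard errors as bars. Filled symbols have an adjusted p under 0.01: Gpx3 (1.51 and 1.05) and Nqo1 (-0.79 and -1.02) in both sexes, and Sod3 (1.61) in females.

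Male and female mice were next compared within each treatment. In vehicle-treated mice 0 of the 10 genes was called with edgeR and 0 with DESeq2, where 0.958% of all tested genes were called, and 2 (Gpx3 and Gclm) had an unadjusted p under 0.05. In corticosterone-treated mice Sod3 and Cat were called, both lower in males, which is 2 of 10 beside 23.3% of all tested genes. The male against female log2FC was -1.94 (SE 0.35, adjusted p = 0.000406) for Sod3 and -0.77 (SE 0.21, adjusted p = 0.00771) for Cat. All 6 males lay below the female mean for both genes. Markers of some other cell types differed in the same direction between these groups. Called lower in males were 5 of 6 fibroblast, 6 of 8 macrophage and 4 of 5 Schwann cell markers (median log2FC -1.74, -1.25 and -1.40). For adipocytes it was 2 of 9 (median log2FC -2.67), near the 23.3% of all tested genes called in either direction. Of the endothelial, smooth muscle, erythrocyte and hepatocyte markers, 0 of 6, 0 of 4, 0 of 5 and 0 of 8 were called. Macrophage marker sums ran from 72.7 to 108 CPM in corticosterone-treated males and from 94.4 to 299 CPM in corticosterone-treated females, and Schwann cell sums from 44.8 to 94.1 and from 89.3 to 295 CPM. The part of fibroblast, macrophage and Schwann cell RNA in Sod3 and Cat was not tested.

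The call of Sod3 between the corticosterone-treated sexes held without M8 and F10 (-1.88, adjusted p = 0.00341) and with the adipocyte score (-1.03, adjusted p = 0.000495). That of Cat was lost under both (-0.68, adjusted p = 0.0462, and -0.41, adjusted p = 0.119). It was also lost when any of 8 mice was left out (M2, M4, M6, M8, M12, F4, F6 or F10), with adjusted p up to 0.0408. Gpx1 had a log2FC of -0.57 (SE 0.20, adjusted p = 0.0285), with all 6 males below the female mean. Nqo1 was higher than the female mean in all 6 males, with a log2FC of 0.40 (SE 0.18, adjusted p = 0.0858), and without F4 it was 0.68 with an adjusted p of 0.000972.

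The tested genes whose log2 CPM over the 23 mice was most like that of a called member are given as a description, since the mice share groups and tissue make-up. Sod3 was most like Sulf2 (Pearson r = 0.99, and 0.98 after the group means were removed) and S100a11 (0.97 and 0.93). Cat was closest to Zc3hav1 (0.90 and 0.85) and Gabarapl1 (0.88 and 0.84). Gpx3 was closest to Gng2 (0.90) and Acot9 (0.89), and Nqo1 to Mllt11 (0.93) and 1110012L19Rik (0.91). For Gpx3 the likeness dropped to 0.52 and 0.50 within groups, and for Nqo1 to 0.69 and 0.70.

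The other genes of these pathways were taken from 9 lists of 119 genes, of which 118 were matched and 100 tested. In males 27 of the 100 were called (15 higher and 12 lower), a share of 27% beside 26.3% of all tested genes. In females 21 were called (19 higher and 2 lower), a share of 21% beside 13.4%. The female count depended on the fit: it was 7 with the adipocyte score, 6 in the female mice alone, 12 without F6 and 13 without F2 or F7. Of the female calls named below, those of Gpx4, Gstm7, G6pdx, Pgd, Idh1, Nqo2, Ftl1, Glrx3, Txnip and Prdx6 were lost in the fit of the female mice alone. With the adipocyte score those of Gsta3, Gstm7, Pgd, Idh1, Maff, Nqo2, Ftl1, Glrx3, Prdx6 and Nox4 were lost. Without M8 and F10 those of Gstm7, Nqo2, Ftl1 and Nox4 were lost. Between the sexes, 3 of the 100 were called in vehicle-treated mice (2 higher and 1 lower in males), beside 0.958% of all tested genes. In corticosterone-treated mice 28 were called (8 higher and 20 lower in males), beside 23.3% of all tested genes. For the counts per list below, 13.2% of all tested genes were called higher and 13.1% lower in males, and 7.40% higher in females.

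Among the other glutathione peroxidases, 1 of 3 tested genes was called in each sex. Gpx4, which reduces lipid peroxides in membranes, ran from 286 to 422 CPM in vehicle-treated males and from 399 to 602 CPM in corticosterone-treated males, and from 251 to 352 and from 330 to 601 CPM in females. The groups overlapped in both sexes, and the log2FC was 0.67 (SE 0.14, adjusted p = 0.000679) in males and 0.75 (SE 0.15, adjusted p = 0.000893) in females. Gpx7 and Gpx8, of the secretory pathway, were not called (log2FC 0.13 and -0.20 in males, -0.16 and 0.42 in females).

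Of 16 glutathione transferases tested, 2 were higher and 1 lower in males, and 4 were higher and 0 lower in females. Gsta4, which handles lipid aldehydes, ran from 10.04 to 12.1 CPM in vehicle-treated and from 3.04 to 5.20 CPM in corticosterone-treated males, and from 9.39 to 13.1 and 6.21 to 10.5 CPM in females. It fell in males (log2FC -1.50, SE 0.13, adjusted p = 5.11e-08), where the groups did not overlap, and was not called in females (-0.35, adjusted p = 0.0537). Gsta4 was the only one of the 100 genes with a called difference between the male and the female response (-1.15, SE 0.18, adjusted p = 0.00507). That call was lost with the adipocyte score, with no filter, without M8 and F10 together, and without M3, M7, M4, M10, F1 or F10 alone.

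Gstm genes other than Gstm1 carry the same doubt over shared reads. Gstm2 rose in males from a median of 46.1 to 131 CPM (log2FC 1.43, SE 0.19, adjusted p = 6.04e-06) without overlap, and measured 0.58 in females (adjusted p = 0.0310). It was called lower in vehicle-treated males than in vehicle-treated females (means of 46.3 and 97.8 CPM). With corticosterone the means were 125 CPM in males and 146 CPM in females. Gstm7 rose in females (1.32, adjusted p = 0.00477) and measured 0.66 in males (adjusted p = 0.0995), with a difference that was not called (adjusted p = 0.310), and its female call was lost without F1, F7, F9, F11, F2, F6 or F10. Gstm4 and Gstm5 were not called in either sex. Gsta3 rose in females (3.74, adjusted p = 0.00201), with 30.9 (F2), 3.61 (F4), 62.8 (F6), 2.46 (F8) and 40.1 CPM (F10), and the female call was lost with the adipocyte score. Its values in males were highest in M8 (35.7 CPM), M12 (20.7 CPM) and M9 (20.4 CPM), which had high hepatocyte marker sums, as did F6 and F10.

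Genes of NADPH supply, which recharges glutathione, were called in females (3 of 8) and not in males (0 of 8), beside 13.4% and 26.3% of all tested genes. G6pdx, the entry enzyme of the pentose phosphate pathway, measured 113 (F2), 24.2 (F4), 177 (F6), 6.59 (F8) and 107 CPM (F10) in corticosterone-treated females, against 5.20 to 23.3 CPM in vehicle-treated females. As with Sod3, F6 was the highest and F8 the lowest. The log2FC was 3.06 (SE 0.58, adjusted p = 0.000699) for G6pdx, 2.17 (adjusted p = 0.00154) for Pgd and 1.10 (adjusted p = 0.00203) for Idh1. The call of Idh1 was lost without F6, and those of Pgd and Idh1 with the adipocyte score. The male values were 0.76, 0.86 and 0.59, and none of the 3 differences between the sexes was called (adjusted p = 0.0530, 0.147 and 0.294).

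NRF2 itself, encoded by Nfe2l2, ran from 35.0 to 47.8 CPM in vehicle-treated males and from 59.5 to 101 CPM in corticosterone-treated males. The groups did not overlap, and Nfe2l2 rose by a log2FC of 0.89 (SE 0.14, adjusted p = 2.94e-05). Its DNA-binding partner Mafk (0.69, adjusted p = 5.36e-05) and its inhibitor Keap1 (0.37, adjusted p = 0.00122) also rose in males. In females these 3 genes had log2FC values of 0.27, 0.17 and 0.04 and were not called, and the differences between the sexes were not called either (adjusted p = 0.0424, 0.0394 and 0.0659). Maff, another partner, rose in both sexes (1.03 and 1.19, adjusted p = 0.00232 and 0.00191), and its female call was lost with the adipocyte score. In all, 4 of 9 NRF2 regulators were higher in males and 1 of 9 in females, and 0 were lower. Of all tested genes, 13.2% were called higher in males and 7.40% in females.

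Of 14 other NRF2 targets, 1 rose and 2 fell in males, and 3 rose and 1 fell in females. Nqo2, the closest relative of Nqo1, fell in males (log2FC -0.90, SE 0.09, adjusted p = 2.33e-07) and in females (-0.38, SE 0.10, adjusted p = 0.00620). Its medians were 30.1 and 16.6 CPM in vehicle- and corticosterone-treated males and 30.7 and 23.8 CPM in females, with no overlap in males. The female call was lost without F1, F5, F7, F2, F6, F8 or F10. Blvra, a biliverdin reductase, fell in males (-0.48, adjusted p = 0.000231) and measured -0.04 in females. Aox1, an aldehyde oxidase, rose in both (0.96 and 1.09, adjusted p = 0.000841 and 0.000908), and the ferritin light chain gene Ftl1 rose in females (0.83, adjusted p = 0.00691), a call lost without F1, F7, F9, F11, F2, F6 or F10.

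Genes of glutathione synthesis, breakdown and recycling were called in 4 of 15 cases in males (2 higher, 2 lower) and 3 of 15 in females (2 higher, 1 lower). Slc3a2, the shared heavy chain of the cystine and other amino acid transporters, rose in both sexes (0.67 and 0.65, adjusted p = 2.28e-05 and 0.000171) without overlap. The glutaredoxins, which reduce glutathionylated proteins or carry iron-sulfur clusters, went different ways in males, where Glrx3 rose (1.02, adjusted p = 1.71e-06) and Glrx (-1.03, adjusted p = 2.22e-05) and Glrx5 (-0.57, adjusted p = 0.000702) fell. In females Glrx3 rose (0.48, adjusted p = 0.00804), a call lost without M1, M6, F1, F3, F5, F7, F11, F2, F6 or F8, whereas Glrx (-0.58, adjusted p = 0.0114) and Glrx5 (-0.17, adjusted p = 0.350) were not called.

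Peroxiredoxins and thioredoxins were called in 4 of 13 genes in males (1 higher, 3 lower) and 2 of 13 in females (both higher). Prdx2, a cytosolic peroxiredoxin, fell in males (-0.66, adjusted p = 0.000372), as did Txnrd3 (-1.01, adjusted p = 0.00138). The thioredoxin inhibitor Txnip, a well-known glucocorticoid-responsive gene, rose in both sexes (0.48 and 0.59, adjusted p = 0.00120 and 0.000651). Prdx6 rose in females (1.10, adjusted p = 0.000702), with 256 (F2), 106 (F4), 400 (F6), 153 (F8) and 231 CPM (F10), a call lost with the adipocyte score.

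Of 13 metal chaperones and selenoproteins, 3 rose and 2 fell in males and 1 rose in females. Msrb1, a methionine sulfoxide reductase, fell in males from a median of 203 to 85.1 CPM (-1.34, SE 0.13, adjusted p = 8.67e-08), without overlap. In females it measured -0.48 with an adjusted p of 0.0103, and the difference between the sexes of -0.87 had an adjusted p of 0.0106. Msrb1 was called higher in vehicle-treated males than in vehicle-treated females (means of 208 and 105 CPM). The means of the corticosterone-treated males and females were 81.9 and 75.7 CPM. Selenon fell (-0.71, adjusted p = 0.000557), and Selenok (0.43, adjusted p = 0.000819) and Selenow (0.51, adjusted p = 0.00377) rose, in males, and the call of Selenow was lost without M11 or M4.

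Of 9 sources of reactive oxygen, 1 rose and 2 fell in males and 2 rose in females. Xanthine dehydrogenase (Xdh) rose in both sexes (0.98 and 1.57, adjusted p = 0.000840 and 4.59e-05). Nox4, an oxidase that makes hydrogen peroxide, rose in females (1.56, adjusted p = 0.00315), a call lost without F10, without M8 and F10 together and with the adipocyte score, and measured 0.27 in males. Duox1 fell in males (-2.63, adjusted p = 0.000109), at a mean of only 1.10 CPM under vehicle, and Cyba, a subunit of the NADPH oxidases, fell in males (-0.73, adjusted p = 0.00323).

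**Figure D4:**
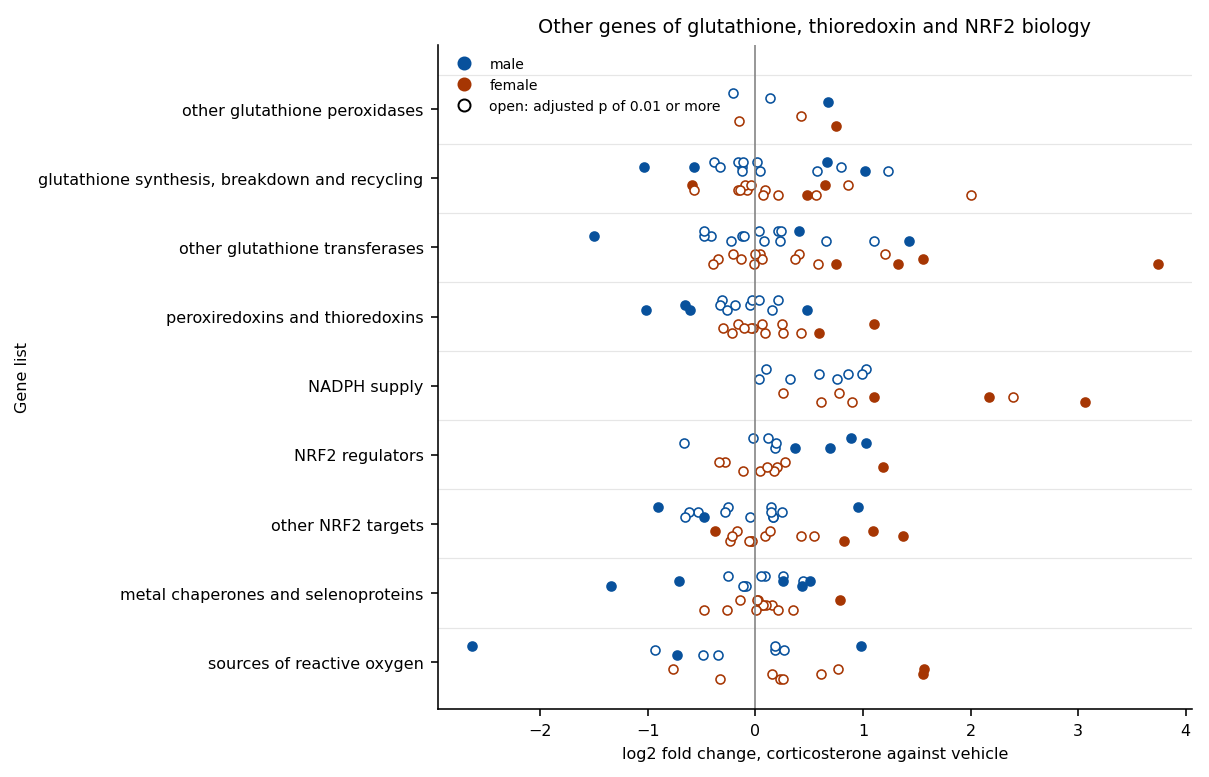
Log2 fold change of corticosterone against vehicle (x axis) for the 100 tested genes of 9 lists (y axis) in male (blue) and female (red-brown) mice, 1 point per gene, filled where the adjusted p was under 0.01. In females 19 of the 21 filled points lie right of 0, and in males 15 of 27 do.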

How the data were processed

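Quadriceps RNA (mRNA-enriched, stranded library, paired reads of 100 bases) was aligned by the authors with STAR 2.7.3a to mouse build mm10 (GRCm38) and counted strand-specifically over Ensembl release 97 with HTSeq 0.12.4, and the deposited values are raw counts per gene, with no normalisation. The 5 summary entries (10.7% to 15.3% of reads per mouse) were left out. Of 55573 identifiers, 55480 matched the GENCODE annotation of that build used here for names, positions and exon lengths. Groups were taken from the labels. Genes with over 20 median-of-ratios counts in at least 4 mice of a group (13049) were fitted with edgeR 4.0.16 in R 4.3.3 (TMM, quasi-likelihood, 4 group means) with Benjamini-Hochberg adjustment and a threshold of 0.01. TMM factors ran from 0.832 to 1.21. Alternatives used DESeq2 1.42.0, limma 3.58.1, other filters and scalings, marker covariates, a replicate block and each mouse left out. The fit was tested on simulated counts. All 10 members were named, with at most 4 genes past the threshold per wider list (smallest adjusted p), members' paralogs, and the 2 nearest genes of each called member. The members and lists were chosen with earlier results of these data known. No 2 replicates agreed within sampling noise (lowest chi-square per degree of freedom 13.2).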

Additional observations from a re-analysis of the deposited data

Results flagged for a closer look

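Of 40 combinations of a gene and a group, 2 held a mouse whose gap to its nearest neighbour took up an unusual share of the group's range, and such a gap is found by chance in about 1 group of every 20. Nqo1 measured 21.3 CPM in corticosterone-treated female F4, against 11.02 CPM in the next mouse, a gap of 0.87 of the range. Gstm1 measured 228 CPM in vehicle-treated female F9, against 188 CPM in the next mouse, a gap of 0.71 of the range. The cause of neither was tested.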

How the results depend on the processing

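Of the counts of members called, those in males changed only with the threshold (1 with an added limit of 1 on the log2FC, 4 at an adjusted p under 0.05), and with a mouse left out the count was always 2. The female count was 1 in the female mice alone (Nqo1), 6 at 0.05 and 2 to 5 with a mouse left out. The difference between the responses gave 1 (Sod3) in DESeq2, in limma-voom and at 0.05, and 0 to 1 with a mouse left out (1 without F3, F4 or F8). Between the corticosterone-treated sexes the count was 1 with no filter, with the adipocyte score, without M8 and F10 and with the log2FC limit, and 1 to 3 with a mouse left out. For the 100 other genes the male count was 8 with the log2FC limit. The female count was 7 with the adipocyte score, 6 in the female mice alone, 12 with the limit, 35 at 0.05 and 12 (without F6) to 28 with a mouse left out. The difference between the responses gave 8 in DESeq2, 9 in limma-voom, 17 at 0.05, 0 with no filter, with the adipocyte score or without M8 and F10, and 0 to 9 with a mouse left out. Between the corticosterone-treated sexes the count was 10 with the adipocyte score, 13 without M8 and F10, 12 with the limit, 45 at 0.05 and 16 to 36 with a mouse left out. The causes were not tested.

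With a replicate block the count of the 100 genes was 1 between the vehicle-treated sexes (3 without it, with Gstm2 and Mgst3 lost) and 16 between the corticosterone-treated sexes (28 without it), and Gstm1 between the latter was -0.027. Deviations of same-numbered males and females had correlations of 0.085 to 0.48 in the 6 vehicle pairs and of -0.38 to 0.24 in the 5 corticosterone pairs, and 4 of 11 matched best with their own number. These correlations cannot decide whether same-numbered mice shared a batch, which the sources used here do not state. The main fits had no replicate block.

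Reversed signs were small and uncalled. In males Cat was -0.034 in limma-voom (-0.097 to 0.096 with a mouse left out), Gpx1 was -0.080 with the hepatocyte score and -0.0066 without M8 and F10 (-0.045 to 0.12), and Gclm ran from -0.16 to 0.016. In females Sod1 was -0.0060 and Gstm1 -0.036 with the adipocyte score, and Gstm1 was -0.00011 with the hepatocyte score (-0.043 to 0.14 with a mouse left out). The difference between the responses of Gclc was 0.023 with the adipocyte score (-0.17 to 0.0095), and Gpx1 between the vehicle-treated sexes ran from -0.12 to 0.017. Between the corticosterone-treated sexes Sod1 was -0.049 in limma-voom and -0.039 without M8 and F10 (-0.042 to 0.11 with a mouse left out), Gstm1 was -0.073 and -0.032 in these (-0.081 to 0.13), and Sod2 was 0.018 in DESeq2 and with median of ratios, 0.12 in limma-voom, 0.0098 with filterByExpr, 0.045 with no filter and 0.089 without M8 and F10 (-0.060 to 0.098). Gclc ran from -0.0077 to 0.17 and Gclm from -0.023 to 0.16 there.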
